A study of Mus musculus with 6 samples.

Results

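The genes described here build the moving DNA replication fork and supply its nucleotides. They were the 37 rows of the count matrix whose symbols belong to a list of polymerases, sliding clamp and clamp loader, GINS, RPA, deoxynucleotide synthesis and chromatin assembly genes, out of 24062 rows in all. All 37 passed the filter on low counts, which 15742 genes passed in total. Messenger RNA was sequenced from Kit-positive bone marrow cells of C57BL/6 mice, which the series description also calls lineage-negative, with 1 mouse per library. The KO group held 3 Mx1Cre+ mice with floxed Ints11 alleles (KO_339, KO_340 and KO_345, genotype label Ints11_KO), and the WT group held 3 littermates (WT_341, WT_343 and WT_344, Ints11_WT). Cells of both groups were sorted 4 days after poly(I:C), which induces interferon and through it the Mx1 promoter that drives Cre. Cre from this promoter acts in many blood-forming and other cells, so it does not restrict deletion to the sorted population. Ages, the proportion of deleted cells, and whether WT littermates carried Cre could not be taken from the labels.

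At a replication fork, CDC45 and the GINS complex join the MCM ring to form the active helicase. DNA polymerase alpha with primase lays down primers, polymerase epsilon extends the leading strand, and polymerase delta extends the lagging strand. The PCNA clamp, which the RFC complex loads, holds the extending polymerases on DNA. Ribonucleotide reductase, thymidylate synthase and related enzymes provide the deoxynucleotides. Many of these genes are transcribed in late G1 and S phase under E2F factors, so their messenger RNA is abundant in dividing progenitors.

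Library totals ranged from 127011537 to 142983542 counts in KO and from 124074531 to 166860739 counts in WT. Levels are given as CPM, counts scaled to a common library size with TMM (trimmed mean of M-values) factors, and changes as log2 KO over WT with the standard error (SE) of the edgeR fit. The floxed gene, listed as Cpsf3l, stood at 61.0 ± 3.08 CPM in KO and 81.7 ± 9.59 CPM in WT (SD, n = 3 each), which checks the labels in part, since reads outside the deleted exons also count. Its log2 change of -0.42 (adjusted p = 0.0174, edgeR) no longer passed with mature neutrophil level as a covariate or without KO_340 or KO_345. Kit, the sort marker, was present at 228 ± 9.28 CPM in KO and 211 ± 11.5 CPM in WT. Counting error is small at this depth, so the spread between mice sets the precision.

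The RNA of the fork genes was lower in Ints11 KO cells almost throughout. Of the 37 genes, 30 fell and 0 rose at an adjusted p under 0.05 in edgeR's quasi-likelihood test (Benjamini-Hochberg adjustment over all tested genes), where 19.9% of genes were called lower. Their median log2 change was -0.50, against 0.01 over all tested genes, and single genes ranged from -0.89 for Gins2 to 0.03 for Tyms. The fitted change was negative for 36 genes and positive for 1. In 32 of the 37, every KO library lay below every WT library, a pattern found in 28.4% of all tested genes. Summed over the list, the level was 4080, 4047 and 3863 CPM in KO_339, KO_340 and KO_345, against 5198, 5582 and 5279 CPM in WT_341, WT_343 and WT_344. The KO mean was 74.7% of the WT mean, and the groups did not overlap. The genes are all well expressed, with means over the 6 libraries from 21.3 CPM (Gins3) to 500.3 CPM (Rrm1). Among the 6946 tested genes in that range of levels, 33.7% were called lower and the median log2 change was -0.16. Of those 6946, 4803 had a negative change, and in 3182 every KO library lay below every WT library. Over all 15742 tested genes, 7720 had a negative change. In bulk samples, fewer cells of a type and less RNA per cell cannot be told apart.

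**Figure D1:**
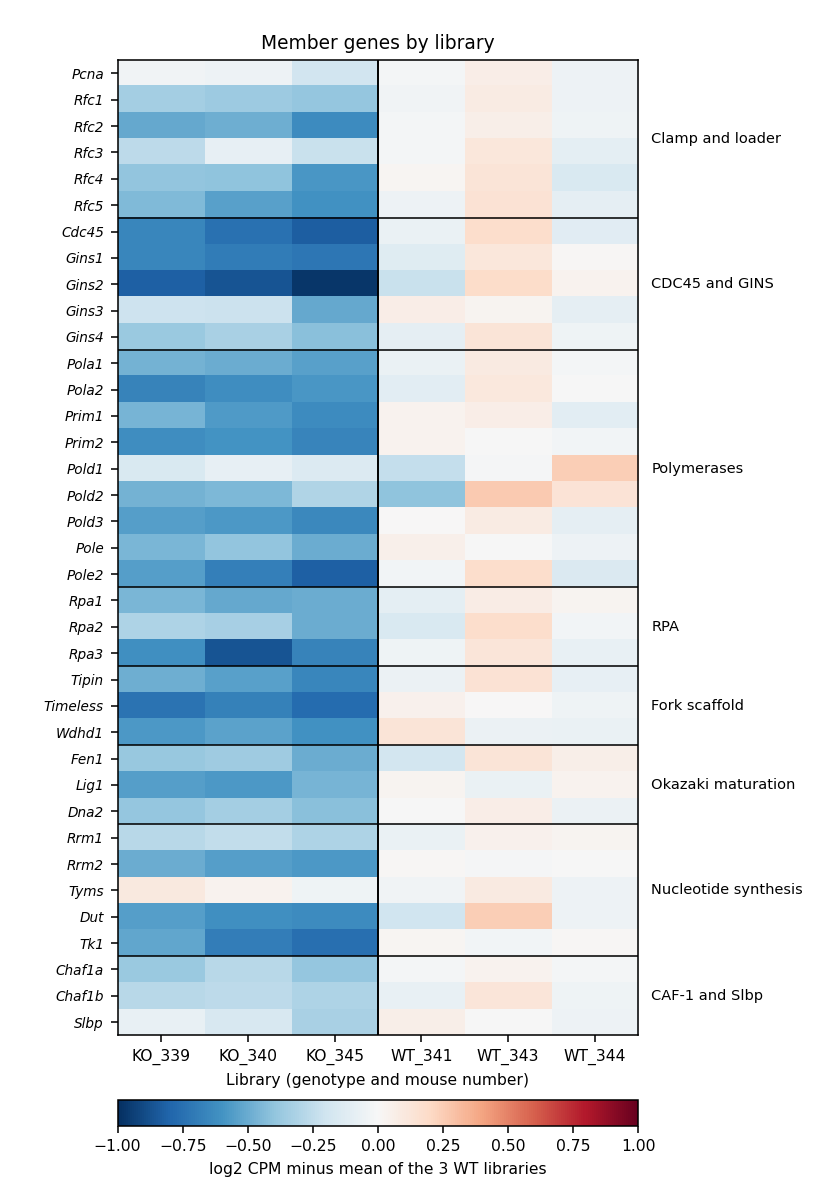
Each row is a fork or nucleotide synthesis gene and each column a library, with KO libraries left of WT libraries and colour giving log2 CPM minus the mean of the 3 WT libraries. The KO columns are blue for nearly all rows, with Pcna and Tyms among the palest.

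Markers listed for mature neutrophils, cells that a lineage-negative gate is meant to remove, moved with genotype as well. Whether dividing precursors also expressed these markers was not tested. Of 16 markers, 15 were tested, 5 were called higher and 1 (Csf3r) lower in KO, and 11 were higher in every KO library than in every WT library. Over all tested genes 16.0% were called higher, and 25.6% were higher in every KO library. Their summed level was 47123 to 61682 CPM in KO and 12778 to 39429 CPM in WT, and none was at 0. The genotypes did not overlap in this marker level. KO_345, with the lowest marker level of the KO libraries (47123 CPM), held 3863 CPM of fork genes. WT_341, the WT library richest in these markers (39429 CPM), held 5198 CPM. By their counts KO_345 was female and WT_341 male, so this pair also differs in sex. KO_340, male by its counts, held 4047 CPM of fork genes at a marker level of 47742 CPM. With the mean log2 level of the markers as a covariate, 19 of the 37 genes passed as lower and 0 as higher, with a median log2 change of -0.41. Of all tested genes, 6.09% were called lower in the same fit. In that fit 34 changes stayed negative. Of 12 stem cell markers, 8 were called higher, against 16.0% of all tested genes, and 0 lower, with summed levels of 135 to 219 CPM in KO and 153 to 166 CPM in WT. Of 12 erythroid markers, 0 were called higher and 1 lower (423 to 523 CPM in KO, 469 to 815 CPM in WT), and of 12 lymphoid markers 1 higher and 0 lower (60.8 to 97.0 CPM in KO, 31.0 to 93.7 CPM in WT), and none of either list was at 0. The part of neutrophil, stem, erythroid and lymphoid cell numbers in the fall was not tested.

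**Figure D2:**
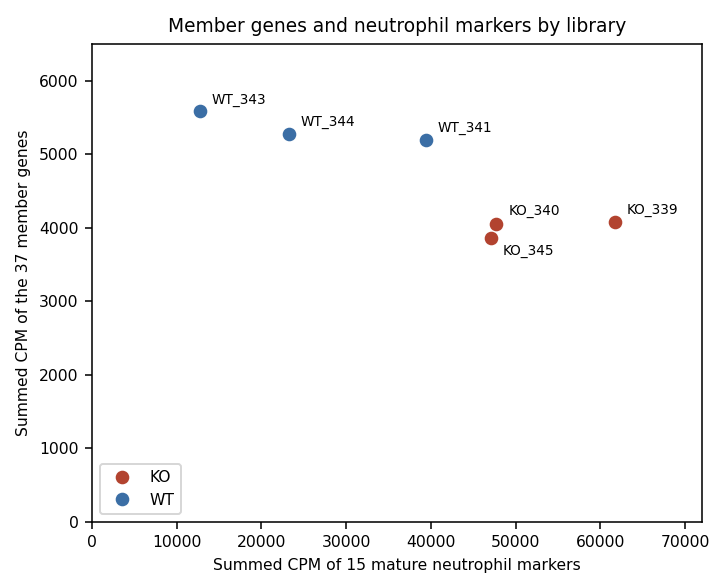
Each point is a library, with the summed CPM of 15 mature neutrophil markers on the horizontal axis and the summed CPM of the 37 fork and nucleotide synthesis genes on the vertical axis. The KO points lie at 3863 to 4080 CPM of fork genes and the WT points at 5198 to 5582 CPM, and WT_341 lies closest to the KO points along the marker axis.

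CDC45 and the GINS complex, the partners that turn the loaded MCM ring into a working helicase, included the largest fall of the list. Of their 5 genes 4 fell. The shares called lower were 19.9% of all tested genes and 33.7% of those in the range of levels of the 37. Gins2 had 17.2, 16.6 and 15.4 CPM in KO libraries, against 26, 34.5 and 31.0 CPM in WT libraries. Its log2 change was -0.89 ± 0.12, the lowest of the 37 (adjusted p = 0.00398, edgeR's quasi-likelihood test). Cdc45 stood at 81.0, 76.1 and 71.9 CPM in KO, against 122, 144 and 118 CPM in WT, a log2 change of -0.74 ± 0.10. Groups did not overlap for either gene. Gins1 was at 23.6, 22.9 and 22.5 CPM in KO libraries and 34.2, 40.1 and 37.4 CPM in WT libraries (log2 change -0.69 ± 0.09). GINS is a complex of 4 different subunits, and the other two differed less. Gins4 fell by 0.37 on the log2 scale, a call lost with the neutrophil covariate (-0.23) and without KO_339 (-0.34) or KO_345 (-0.32), and Gins3, at -0.31, did not pass (adjusted p = 0.0684), although its 3 KO libraries also lay below its 3 WT libraries. Gins3 passed with sex as a covariate (log2 change -0.38, adjusted p = 0.0270, edgeR). In the annotation (GENCODE M21, GRCm38), Gins2 spans chr8:120578633-120589304 on the reverse strand and Cdc45 spans chr16:18780447-18811987 on the reverse strand.

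Of the scaffold that ties helicase to polymerases, 3 of 3 genes fell. Called lower were 19.9% of all tested genes (33.7% in the range of levels of the 37). Timeless, whose protein pairs with TIPIN to keep helicase and polymerases together, had the smallest adjusted p of all 37 genes. It was at 84.3, 87.8 and 82.6 CPM in KO and at 145, 141 and 136 CPM in WT, with a log2 change of -0.73 ± 0.07 (adjusted p = 0.00155, edgeR). All KO libraries were close together and below the lowest WT library. Tipin had 78.3, 75.1 and 70.0 CPM in KO, against 105, 121 and 104 CPM in WT (log2 change -0.56 ± 0.09). Wdhd1, the AND-1 protein that links polymerase alpha to the helicase, had 108, 110.0 and 105 CPM in KO, against 175, 153 and 152 CPM in WT (-0.57 ± 0.08). Neither gene showed overlap between genotypes. Timeless lies at chr10:128232065-128252941 on the forward strand.

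Of the 9 polymerase and primase genes, 7 fell. All 4 genes of polymerase alpha and primase fell. Prim2, the large primase subunit, was at 51.0, 51.8 and 49.5 CPM in KO and 80.1, 78.3 and 76.8 CPM in WT, a log2 change of -0.63 ± 0.07 (adjusted p = 0.00245, edgeR). The SD was 1.16 CPM in KO and 1.69 CPM in WT, small beside the gap between genotypes. Pola2, the B subunit of polymerase alpha, had 55.9, 57.8 and 59.2 CPM in KO and 82.5, 95.7 and 88.6 CPM in WT (-0.63 ± 0.08). The catalytic subunit gene Pola1 (-0.50 ± 0.07) and the catalytic primase gene Prim1 (-0.56 ± 0.08) also fell. For polymerase epsilon, the catalytic gene Pole (-0.45 ± 0.07) and the second subunit gene Pole2 (-0.69 ± 0.11) both fell, and the call of Pole2 was lost with the neutrophil covariate (-0.59, adjusted p = 0.0562, edgeR).

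Polymerase delta was uneven. Pold3, an accessory subunit that binds PCNA, was at 78.8, 77.7 and 73.8 CPM in KO and 116, 122 and 109 CPM in WT, with no overlap (log2 change -0.59 ± 0.07, adjusted p = 0.00332, edgeR). Pold1, the catalytic subunit, had 136, 143 and 138 CPM in KO and 128, 150.1 and 179 CPM in WT. Its KO libraries were close together and lay inside the WT range (log2 change -0.13 ± 0.12, adjusted p = 0.4). Pold2, the second subunit, had 32.7, 33.1 and 36.9 CPM in KO and 34.3, 54.4 and 49.8 CPM in WT, again with WT_341 down among the KO libraries (-0.43 ± 0.17, adjusted p = 0.0787). Without WT_341, Pold1 passed at -0.26 (adjusted p = 0.0416) and Pold2 at -0.62 (adjusted p = 0.00152), and Pold2 also passed with DESeq2 (-0.42, adjusted p = 0.0427). With the neutrophil covariate the signs of both turned, to 0.02 for Pold1 and 0.04 for Pold2. The log2 ratio of Pold3 to Pold1 was -0.79, -0.88 and -0.90 in KO and -0.14, -0.29 and -0.72 in WT. The groups did not overlap, which gives the smallest exact two-sided permutation p this design allows (0.10, or 0.18 adjusted over 9 ratios).

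**Figure D3:**
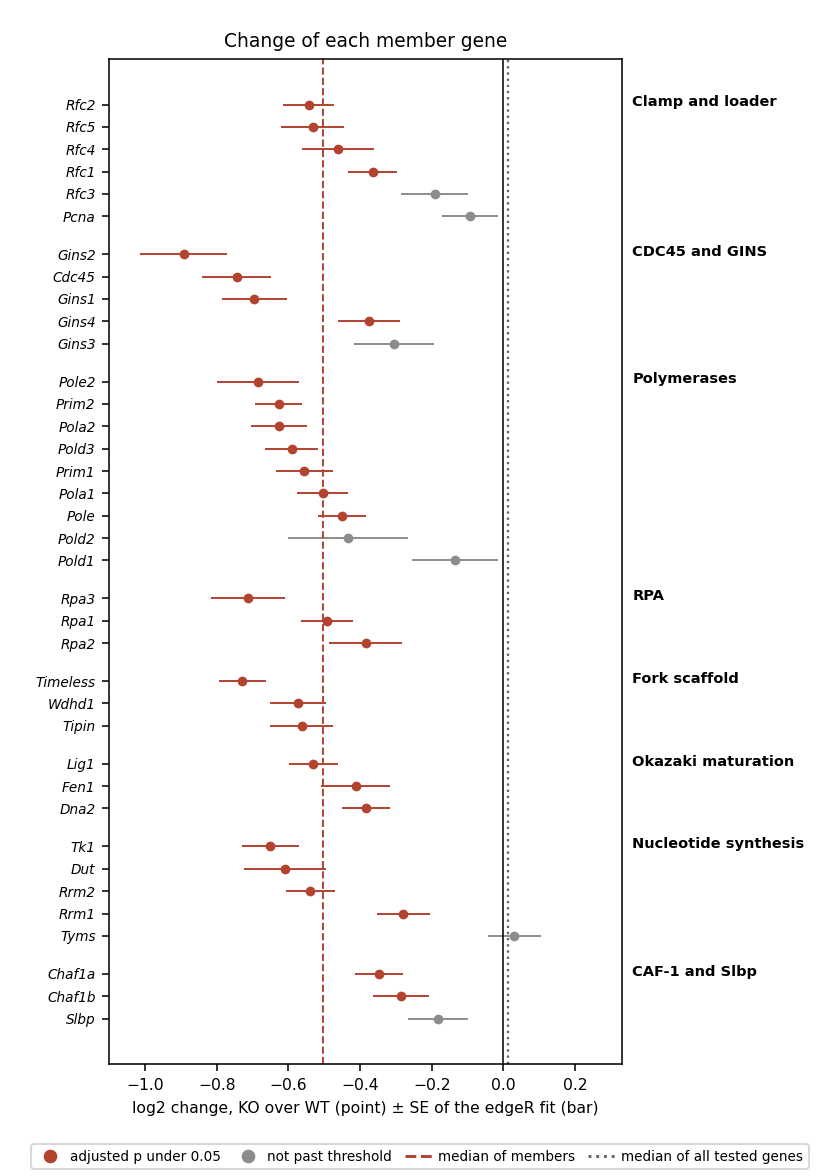
Points are log2 changes of each gene (KO over WT) with the SE of the edgeR fit as bars, grouped by role, in red where the adjusted p was under 0.05. The dashed line marks the median of the 37 genes (-0.50) and the dotted line that of all tested genes (0.01), and Gins2 and Tyms are the extremes.

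Calls also differed among the genes of the sliding clamp and its loader, and the difference between clamp and loader was not tested. Pcna, the clamp itself, had 364, 360.5 and 327 CPM in KO and 369, 392 and 362 CPM in WT. The genotypes overlapped, and Pcna did not pass the test (-0.09 ± 0.08 on the log2 scale, adjusted p = 0.377, edgeR). The sign of this small change depended on scaling: it was 0.04 under upper-quartile scaling and 0.01 when only library totals were used. Of the 5 loader genes, 4 fell. Rfc2 stood at 96.6, 97.8 and 88.9 CPM in KO and 136, 144 and 133 CPM in WT, without overlap (-0.54 ± 0.07, adjusted p = 0.00377). Rfc5 had 78.5, 73.4 and 70.1 CPM in KO and 103, 118 and 100.02 CPM in WT (-0.53 ± 0.09). Rfc1, the large subunit of the loader, had 189, 186 and 183 CPM in KO and 234, 254 and 232 CPM in WT (-0.36 ± 0.07). Rfc4 fell by 0.46 on the log2 scale, and Rfc3, at -0.19 with overlapping libraries, did not pass (adjusted p = 0.142). With the neutrophil covariate, Rfc1 (-0.29), Rfc4 (-0.40) and Rfc5 (-0.42) no longer passed, and Rfc4 was also lost without KO_345 (-0.37).

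All 3 subunits of RPA, the complex that coats single-stranded DNA behind the helicase, fell. Rpa1, the large DNA-binding subunit, was at 161, 155 and 157 CPM in KO and 206, 233 and 226 CPM in WT (log2 change -0.49 ± 0.07, adjusted p = 0.00469, edgeR). Rpa3, the small subunit, was at 21.2, 17.9 and 20.5 CPM in KO and 31.4, 35.2 and 30.9 CPM in WT (-0.71 ± 0.10). No KO library reached the WT range for these genes. Rpa2 had 81.7, 80.7 and 71.7 CPM in KO and 91.4, 115 and 99.5 CPM in WT (-0.38 ± 0.10, adjusted p = 0.0254). The call of Rpa2 was lost with upper-quartile factors (-0.25), with the neutrophil covariate (-0.18), and without WT_344 or any 1 KO library (-0.41 to -0.30).

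Genes that finish the lagging strand fell, 3 of 3. Lig1, the ligase that seals Okazaki fragments, had 149.8, 147 and 159 CPM in KO and 224, 210.3 and 225 CPM in WT, with no overlap (log2 change -0.53 ± 0.07, adjusted p = 0.00356, edgeR). Dna2, a nuclease-helicase that trims long flaps, had 89.8, 93.0 and 87.8 CPM in KO and 117, 123 and 113 CPM in WT (-0.38 ± 0.07). Fen1, the flap endonuclease, had 142, 144 and 131 CPM in KO and 162, 201 and 192 CPM in WT (-0.41 ± 0.10). The Fen1 call was lost with the neutrophil covariate (-0.21) and without KO_339, KO_345 or WT_344 (-0.39 to -0.34).

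In nucleotide synthesis Tk1 and Tyms, 1 gene from each of 2 routes to thymidylate, differed in their values. The routes as a whole were not compared. Tk1, thymidine kinase of the salvage route, had 84.5, 75.0 and 72.0 CPM in KO and 123, 119 and 122 CPM in WT (log2 change -0.65 ± 0.08, adjusted p = 0.00329, edgeR). Tyms, thymidylate synthase of the de novo route, had 98.2, 94.3 and 89.1 CPM in KO and 89.8, 97.5 and 88.4 CPM in WT. Tyms was the 1 gene of the 37 with a positive change, 0.03 ± 0.07, and its libraries overlapped fully (adjusted p = 0.770). The sign turned, to -0.00369 without WT_344. The log2 ratio of Tk1 to Tyms was -0.22, -0.33 and -0.31 in KO and 0.45, 0.28 and 0.46 in WT. This pair was chosen after its values were seen, so its lack of overlap is a description. The exact two-sided permutation p (0.10, the smallest possible, 0.18 adjusted over 9 ratios) does not count the pairs it was picked from.

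Ribonucleotide reductase, which makes deoxynucleotides from ribonucleotides, fell in both S-phase subunits. Rrm2, the small subunit, had 326, 314 and 309 CPM in KO and 463, 456 and 459 CPM in WT, a WT spread of 3.30 CPM (SD), with a log2 change of -0.54 ± 0.07 (adjusted p = 0.00344, edgeR). Rrm1, the large subunit, had 452, 463 and 442 CPM in KO and 523, 566 and 557 CPM in WT (-0.28 ± 0.07, adjusted p = 0.0262). The Rrm1 call was lost under upper-quartile scaling (-0.14), under library-total scaling (-0.18), with the neutrophil covariate (-0.20), and without WT_344 or any 1 KO library (-0.27 to -0.23). The log2 ratio of Rrm2 to Rrm1 was -0.47, -0.56 and -0.52 in KO, below all of -0.18, -0.31 and -0.28 in WT (exact two-sided permutation p = 0.10, 0.18 adjusted over 9 ratios). The Rrm2b to Rrm2 ratio was higher in KO by 0.56 and the Rpa3 to Rpa1 ratio lower by 0.22, on the log2 scale, both without overlap and with the same p, while 4 further pairs (Pole2 to Pole, Prim2 to Prim1, Chaf1b to Chaf1a, Timeless to Tipin) overlapped. Rrm2b, the alternative small subunit known as a p53 target, had 16.2, 15.3 and 13.95 CPM in KO and 15.7, 15.2 and 13.9 CPM in WT, and did not pass (0.02 ± 0.10, adjusted p = 0.876). Dut, the dUTPase that keeps uracil out of DNA, had 109, 105 and 104 CPM in KO and 140.03, 190.2 and 155 CPM in WT (-0.61 ± 0.11, adjusted p = 0.00899), and was lost with the neutrophil covariate (-0.32, adjusted p = 0.0737).

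**Figure D4:**
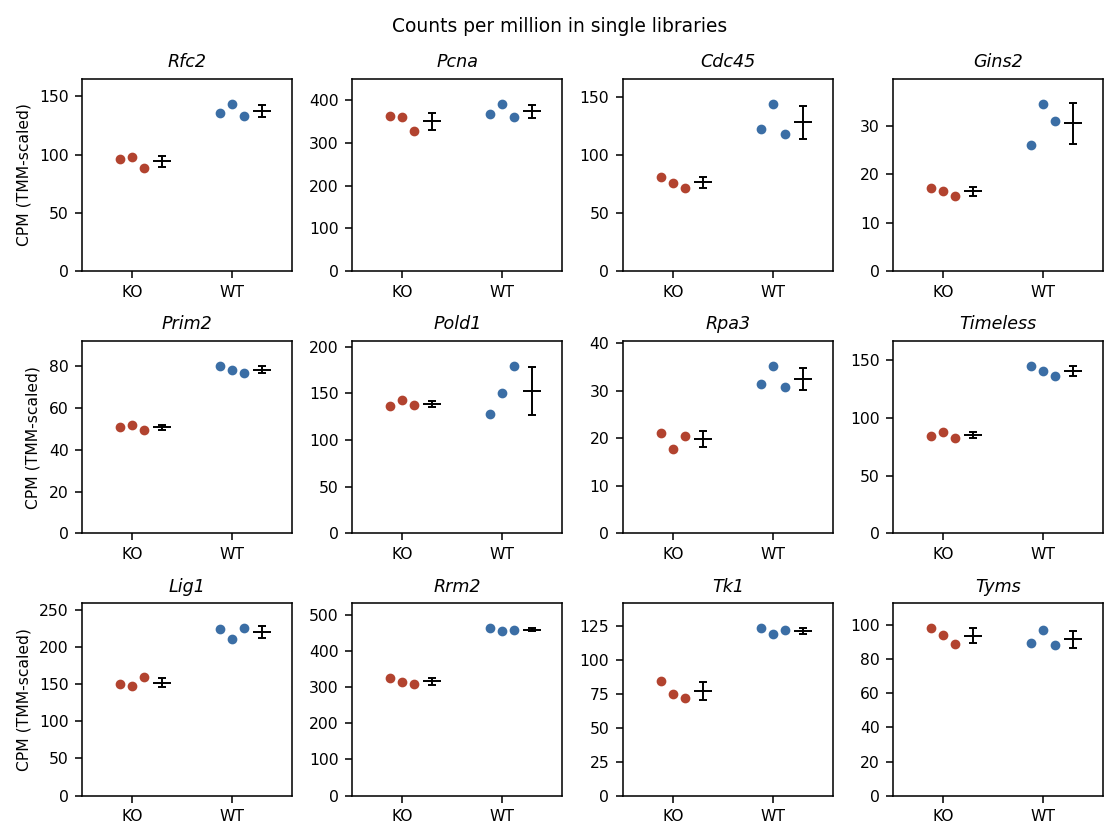
Points are TMM-scaled CPM of single libraries for 12 genes, KO left of WT, with the mean and SD of the 3 libraries of each genotype in black and every vertical axis starting at 0. KO and WT points overlap for Pcna, Pold1 and Tyms and are separate for the other genes shown.

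Genes of chromatin assembly behind the fork and of histone messenger RNA had the smallest median change of the role groups, -0.29. Chaf1a, the large subunit of the histone chaperone CAF-1, had 121, 129 and 119.7 CPM in KO and 155, 161 and 155 CPM in WT (log2 change -0.35 ± 0.07, adjusted p = 0.00944, edgeR). Chaf1b, another subunit, had 55.7, 56.1 and 54.4 CPM in KO and 64.0, 73.4 and 65.3 CPM in WT (-0.29 ± 0.08, adjusted p = 0.0278). Neither overlapped between genotypes. The Chaf1a call was lost with the neutrophil covariate (-0.30, adjusted p = 0.0549, edgeR) and without KO_339 (-0.30, adjusted p = 0.0547, edgeR), both close to its change of -0.35. That of Chaf1b was lost in both as well (-0.16 and -0.26), and also under upper-quartile scaling (-0.15), under library-total scaling (-0.18), and without WT_344, KO_340 or KO_345 (-0.32 to -0.24). Slbp, which binds the stem-loop of histone messenger RNA, had 144, 136 and 121 CPM in KO and 158, 151 and 146 CPM in WT. All KO libraries were below the WT ones, yet the change of -0.18 ± 0.08 did not pass (adjusted p = 0.123).

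Per kilobase of annotated exon, Rrm2 and Pcna were the most abundant of the 37, at 114 and 146 CPM per kb in KO and 166 and 156 CPM per kb in WT. Pcna therefore stood above Rrm2 in KO, and Rrm2 above Pcna in WT. Gins2 had the lowest level in both genotypes, 4.01 CPM per kb in KO and 7.44 CPM per kb in WT. Between genotypes no gene differed by more than 10 places in the order, the difference of Tyms, which held place 21 in KO and place 31 in WT. These levels use all annotated exons of a gene, so a gene with long unused exons appears lower than its main transcript.

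Promoters of these genes were read from RefSeq windows (GRCm38.p6, 250 bases before to 50 after a start), which matched 30 of the 37 genes in 34 windows. The genes with no window were Gins1, Gins2, Gins4, Pole, Prim2, Rfc2 and Tipin. The letters TTNNCGC, with C or G at each N, the core of the motif bound by E2F factors, were searched on both strands. A match was present in 19 of 34 windows (55.9%), against 9.57% of the 32851 windows searched in all. By gene, 18 of 30 held a match. Of the 18 genes with a match, 15 fell (median log2 change -0.44), of the 12 without one 8 fell (median -0.51), and of the 7 with no window 7 fell (median -0.56). Over all tested genes 19.9% were called lower. CCAAT was found in 44.1% of the windows, against 37.4% of all, GGGCGG in 67.6% against 35.7%, and TTTGAA, the core of the CHR element, in 11.8% against 17.9%, each on both strands. E2F letters can overlap CCAAT and GGGCGG. A match describes letters in a window and is not evidence of binding, and the first 250 bases of 24 of the 34 windows overlap an annotated exon. Bases after the start were found in a GENCODE transcript of the gene for 30 of the 34 windows. Timeless and Dut, counted as without a match, each had only a window inside the gene (chr10:128237816-128238115 and chr2:125247265-125247564). Their annotated starts, 128232065 and 125247190, were not searched.

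Only 6 of the 34 windows had their first 250 bases clear of every exon in GENCODE M21 and ended within 50 bases of the gene's annotated start, and the sequences shown come from those. Of these genes, Rrm1 fell and holds a single E2F match ( chr7:102441445-102441694, forward strand), Pola2 fell with no match and is the one of that kind with the smallest adjusted p (chr19:5964207-5964456, reverse strand), and Tyms did not pass and has no match (chr5:30073626-30073875, reverse strand). Sequences run 5′ to 3′ along the gene, and capitals mark the E2F letters, which begin 67 bases before the start in Rrm1.
Rrm1: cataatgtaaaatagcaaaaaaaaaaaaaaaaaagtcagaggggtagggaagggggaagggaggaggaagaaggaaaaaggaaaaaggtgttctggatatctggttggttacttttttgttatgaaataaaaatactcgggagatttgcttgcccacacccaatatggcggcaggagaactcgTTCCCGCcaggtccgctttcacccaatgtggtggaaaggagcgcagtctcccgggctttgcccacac
Pola2: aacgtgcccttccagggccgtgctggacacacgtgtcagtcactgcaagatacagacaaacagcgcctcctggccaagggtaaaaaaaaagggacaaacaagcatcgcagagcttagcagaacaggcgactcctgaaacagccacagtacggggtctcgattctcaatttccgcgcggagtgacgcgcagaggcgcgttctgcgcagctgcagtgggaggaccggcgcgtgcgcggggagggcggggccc
Tyms: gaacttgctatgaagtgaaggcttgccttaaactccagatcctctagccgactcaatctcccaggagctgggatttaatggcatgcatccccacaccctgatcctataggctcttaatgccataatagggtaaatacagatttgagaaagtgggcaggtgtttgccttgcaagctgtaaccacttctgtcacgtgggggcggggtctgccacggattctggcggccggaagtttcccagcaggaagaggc

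Other genes of the fork were lower as well. Of 27 outside the 37, 18 fell and 0 rose, with a median log2 change of -0.29. Over all tested genes 19.9% were called lower and 16.0% higher. Among tested genes in the range of levels of the 37, 33.7% were called lower and the median was -0.16. Rnaseh2a, the catalytic subunit of the enzyme that removes ribonucleotides from DNA, had 18.9, 20.5 and 20.5 CPM in KO and 45.4, 56.2 and 50.8 CPM in WT. Its change of -1.35 ± 0.10 was larger in size than that of any of the 37 genes (adjusted p = 0.00112, edgeR). The next by adjusted p were Mcm10 (-0.67 ± 0.08), which helps to activate the helicase, and Dscc1 (-0.79 ± 0.10), part of an alternative clamp loader. After them came the histone chaperone gene Nasp (-0.63 ± 0.10), the histone acetyltransferase gene Hat1 (-0.59 ± 0.10) and Pclaf (-0.38 ± 0.07), a PCNA-binding factor listed as 2810417H13Rik. Asf1b, another histone chaperone (0.06, adjusted p = 0.615, edgeR), and Pold4, the small subunit of polymerase delta (0.01, adjusted p = 0.936, edgeR), did not pass.

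Of 26 other genes of nucleotide supply, 19 fell and 0 rose, with a median log2 change of -0.51. Called lower were 19.9% of all tested genes, and 33.7% (median -0.16) of those in the range of levels of the 37. Shmt2, which feeds mitochondrial one-carbon units, had 82.5, 83.3 and 88.8 CPM in KO and 142, 272 and 177 CPM in WT, a log2 change of -1.22 ± 0.22 (adjusted p = 0.00765, edgeR). The WT libraries differed widely, yet all lay above KO. Adsl (-1.002 ± 0.16), Pfas (-0.69 ± 0.13) and Paics (-0.49 ± 0.10) act in purine synthesis, and Dhodh (-0.83 ± 0.14) acts in pyrimidine synthesis. With the neutrophil covariate Dhodh, Pfas and Paics no longer passed. Samhd1, which degrades deoxynucleotides, had 157, 141 and 188 CPM in KO and 174, 125 and 138 CPM in WT and did not pass (0.15 ± 0.15, adjusted p = 0.441). The sign for Samhd1 turned with the neutrophil covariate (-0.13).

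Of 17 origin licensing genes 12 fell, with a median of -0.39, and of 26 mitosis genes 10 fell (38.5%), with a median of -0.15. The mitosis share and median were close to the 33.7% and -0.16 of all genes in the range of levels of the 37. Over all tested genes 19.9% were called lower. In 15 of the 26 mitosis genes every KO library lay below every WT library, against 28.4% of all tested genes. That held for 3182 of the 6946 genes in the range of levels of the 37. A range set by the mitosis genes themselves was not used. No gene of either list rose. Of the 26 mitosis genes, 19 had a negative change and 7 a positive one. Mki67, a gene of cycling cells picked with its result in view, had a log2 change of 0.01 and did not pass (adjusted p = 0.955, edgeR). The share of cycling cells was not tested. The mean log2 CPM of the 37 fork genes minus that of the mitosis genes was -0.69, -0.65 and -0.66 in KO and -0.44, -0.26 and -0.38 in WT. Every KO value was below every WT value. The same difference against the licensing genes was -0.37, -0.41 and -0.40 in KO and -0.31, -0.36 and -0.33 in WT, a gap between means of 0.06. These differences are descriptions, since the lists were chosen with earlier results known.

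**Figure D5:**
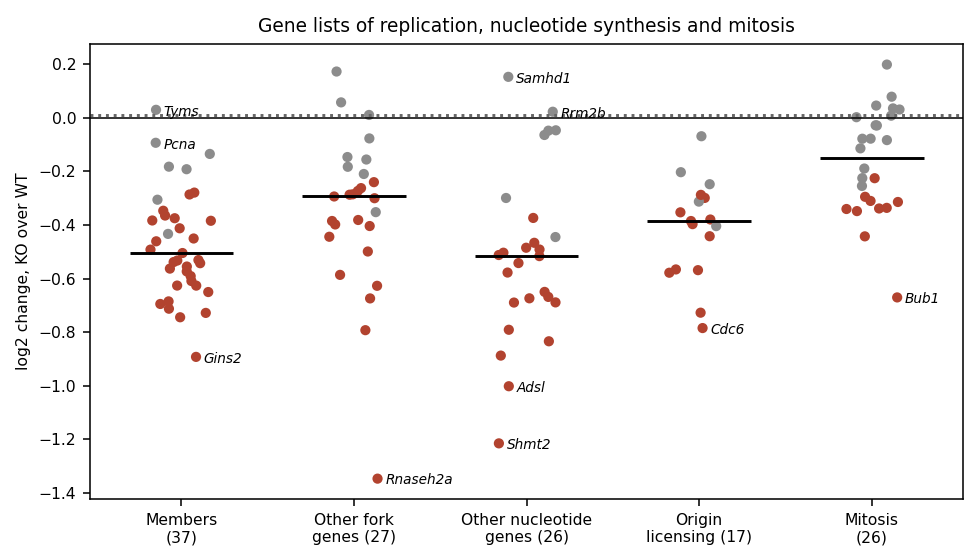
Each point is the log2 change (KO over WT) of a gene, by list, in red where it fell at an adjusted p under 0.05 and in grey otherwise, with the list median as a black bar and the median of all tested genes dotted. Medians run from -0.51 for other nucleotide genes and -0.50 for the 37 fork and nucleotide genes to -0.15 for mitosis genes.

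Xist and Y-linked counts placed KO_339, KO_340 and WT_341 as males and the other 3 libraries as females, which the labels do not give. Between the 2 KO and 1 WT males, 35 of 37 genes were lower in KO, with a median log2 ratio of -0.42, and Pold1 and Tyms were higher. Between the 1 KO and 2 WT females, 37 of 37 were lower, with a median of -0.58. Within-sex values have too few libraries for a test, and the share of all genes that were lower within a sex was not taken. With sex as a covariate 31 genes passed as lower, where 17.3% of all tested genes were called lower.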

How the data were processed

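The deposited table holds raw counts for each gene symbol and library, which the authors had not normalized, as its whole-number values and headers show. Per the submitters' processing notes, FastQC, Trimmomatic, STAR and HTSeq were used with build mm10. Not given in the sources used here are their versions, the annotation, the strand setting and the handling of reads with several positions. Libraries came from a strand-specific messenger RNA kit read as pairs of 75 bp, per the labels' protocols. Exons of 9 of the 37 genes (Cdc45, Chaf1a, Fen1, Gins2, Lig1, Rfc2, Rfc4, Rfc5, Tk1) overlap a coding gene on the opposite strand, so their counts are less certain. Pole2 has an exon that overlaps a coding gene on the same strand (Gm49384), so its counts are less certain as well.

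The test was edgeR 4.0.16's quasi-likelihood test, run in R 4.3.3 (filterByExpr, minimum count of 10 and total of 15, TMM, robust glmQLFit, glmQLFTest, Benjamini-Hochberg adjustment over 15742 genes, threshold 0.05), and the code was tested on simulated data. SE is the log2 change divided by the root of F. Mean log2 CPM used a prior count of 2. Positions are 1-based, from GENCODE M21. No 2 libraries agreed within counting noise (chi-square per degree of freedom at least 51.3). Each library is a separate mouse. Alternatives were DESeq2 1.42.0, limma 3.58.1 (voom), other scalings and filters, covariates, and leaving out each library. All 37 genes were described. Other genes named are the 6 with the smallest adjusted p in each list, plus Rrm2b and Samhd1, Cpsf3l as the check of the labels and Kit. A gene that this rule names is not reported here. Values of Csf3r, Mki67, Asf1b and Pold4, and library levels of Pcna, Pold1, Pold2 and Rrm1, were picked with their results in view. The members and lists were chosen with earlier results of these data known.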

Additional observations from a re-analysis of the deposited data

How the results depend on the processing

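Under 14 alternatives no fork gene was called higher, and 19 of the 30 calls held under all of them (Rfc2, Cdc45, Gins1, Gins2, Pola1, Pola2, Prim1, Prim2, Pold3, Pole, Rpa1, Rpa3, Tipin, Timeless, Wdhd1, Lig1, Dna2, Rrm2 and Tk1). The mature neutrophil covariate left 19 lower calls with a median log2 change of -0.41, and 1532 calls over all genes, against 5659. In that fit 6.09% of all tested genes were called lower, against 19.9% in the main fit. This covariate differs between genotypes, so the fit may assign to it what belongs to genotype. Upper-quartile factors gave 27 lower calls with a median of -0.37, where 12.3% of all tested genes were called lower. Library totals only gave 28 with a median of -0.40, where 14.1% of all tested genes were called lower. These scalings moved the median of all tested genes to 0.15 and 0.11, so relative to that median the fork genes stood at -0.52 in both, as with TMM. The share of all calls that were lower was 55.5% with TMM, 35.8% with upper-quartile factors, 41.2% with library totals only and 62.6% with the neutrophil covariate. Leaving out single libraries gave 24 to 32 lower calls, 0 higher calls, a median of -0.54 to -0.46, and 2302 to 7879 calls over all genes (2302 without KO_339, 2966 without KO_345, 3316 without KO_340, 3270 without WT_344). Those fits called 7.95% (without KO_339) to 26.6% (without WT_341) of all tested genes lower. Signs turned for Pcna (0.0428 with upper-quartile factors, 0.00730 with library totals only), Pold1 (0.00380 with upper-quartile factors, 0.0237 with the neutrophil covariate), Pold2 (0.0403 with that covariate), Tyms (-0.00369 without WT_344, the lowest of its values with 1 library left out, against 0.0959 without KO_345, the highest of those, and 0.166 with upper-quartile factors, the highest of all), Rrm2b (-0.0261 with sex as a covariate, -0.0322 with the neutrophil covariate, -0.0335 without WT_344) and Samhd1 (-0.133 with the neutrophil covariate), and none of these was called under TMM or under the setting that turned it. The cause was not tested. No paired analysis was possible because the genotypes share no replicate numbers. DESeq2, limma-voom, the other low-count filters and sex as a covariate gave 30 or 31 lower calls. Those fits called 16.7% (no low-count filter) to 22.9% (DESeq2) of all tested genes lower.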

Other observations

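The spread between mice differed by gene list and genotype. The median coefficient of variation over the 26 other nucleotide genes was 4.27% in KO libraries and 18.7% in WT libraries, against 4.31% in KO and 6.19% in WT for the 37 fork and nucleotide genes and 4.46% in KO and 4.95% in WT for the mitosis genes. It was 3.73% in KO and 8.84% in WT for the other fork genes. For the licensing genes it was 4.81% in KO and 9.26% in WT. Adsl, of the other nucleotide genes, had 52.4, 52.7 and 52.95 CPM in KO and 80.7, 131 and 105 CPM in WT. Of the 37 genes, WT_343 had the highest WT level for 27, and KO_345 the lowest KO level for 30. Neither these shares nor the coefficient of variation were taken over all tested genes.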
